A study of Mus musculus with 6 samples.

Results

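The 10 genes Spry1, Spry2, Spry4, Spred1, Spred2, Phlda1, Ier3, Epha2, Etv4 and Etv5 are known targets of the ERK MAP kinase pathway, most of which feed back on it, and they are 10 of the 19938 genes that the arrays measured with a probe set of their own. They were listed by name, and each was followed on the probe set that carries its symbol alone and has the highest mean over the 6 arrays. RNA came from C1498, a mouse leukemia line from the C57BL/6J background that the labels and the paper describe as AML, after 48 h with the PARP-1 inhibitor PJ34 at 20 μM (3 arrays) or with PBS (3 arrays), in DMEM with serum in both groups. The labels number the arrays 1 to 3 in each group without naming separate cultures, while the paper speaks of independent experiments, so that p-values measure only the spread between these arrays. The study followed the ERK1/2 pathway as a possible route of PARP-1 inhibition, by protein blots in other lines. The arrays hold RNA alone, so ERK phosphorylation in C1498 was not analysed here.

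In the ERK pathway, growth factor receptors pass a signal through Ras, Raf and MEK to ERK, which switches on a set of target genes. Several of these encode brakes: Sprouty and Spred proteins are membrane-bound inhibitors that act between the receptor and Raf, and dual-specificity phosphatases remove phosphate from the kinases themselves. Because their RNA follows ERK activity in many cell types, such genes are often read together as a record of the pathway's output. In blood cells the pathway carries signals of cytokine receptors and, in lymphocytes, of antigen receptors.

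Values are deposited log2 expression values (RMA), and a change is PJ34 minus PBS on that scale. Array medians lay between 4.41 and 4.46 and no array stood apart. Markers went only partly with the label. All 5 pan-leukocyte markers lay above the median level of the 35556 probe sets (4.42), whereas of 12 myeloid markers only Cebpa and Cebpe did, and Mpo, Elane, Itgam, Csf1r and Lyz2 did not. Of 11 measured T and NK cell markers, Cd3d, Cd3e, Cd3g and Zap70 lay above it, and none of 5 B cell markers did. Of 8 fibroblast and epithelial markers 4 did (Col1a1, Col1a2, Col3a1 and Krt8), and of 5 erythroid and megakaryocyte markers Itga2b, so that a level above the median does not by itself mark a cell type. The summed linear level of the pan-leukocyte markers was 3652 to 3737 with PBS and 3876 to 4057 with PJ34, without overlap, and Cd44 among them rose (0.49, adjusted p = 0.00918 from limma). That of the T and NK markers, most of it from Cd3e and Cd3g (mean log2 values 10.5 and 11.1), was 3728 to 3883 and 3844 to 3990, with Gzma alone passing the test. That of the myeloid markers was 161 to 171 and 156 to 171. Their part in the results below was not tested. In such bulk RNA, fewer cells of a kind and less RNA per cell cannot be told apart.

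With PARP-1 inhibition, 1 of the 10 genes rose, Phlda1, and 1 fell, Epha2, at an adjusted p under 0.05 from limma. Among all 23412 probe sets tested, 3.07% passed this test, 1.72% higher and 1.35% lower. The other 8 genes did not pass, with log2 changes of -0.28 to 0.028. The median of the 10 was -0.12, beside 0.0029 over all probe sets tested, and 8 of the 10 changes were negative, as were 49.0% of all. The 3 PJ34 values did not overlap the 3 PBS values for 4 of the 10 genes, Phlda1 (higher) and Epha2, Spred1 and Spry4 (lower). Over all probe sets tested, 23.5% did not overlap, 10.9% being lower. For the same 4 genes limma's unadjusted p was under 0.05, as it was for 16.7% of all probe sets tested.

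**Figure D1:**
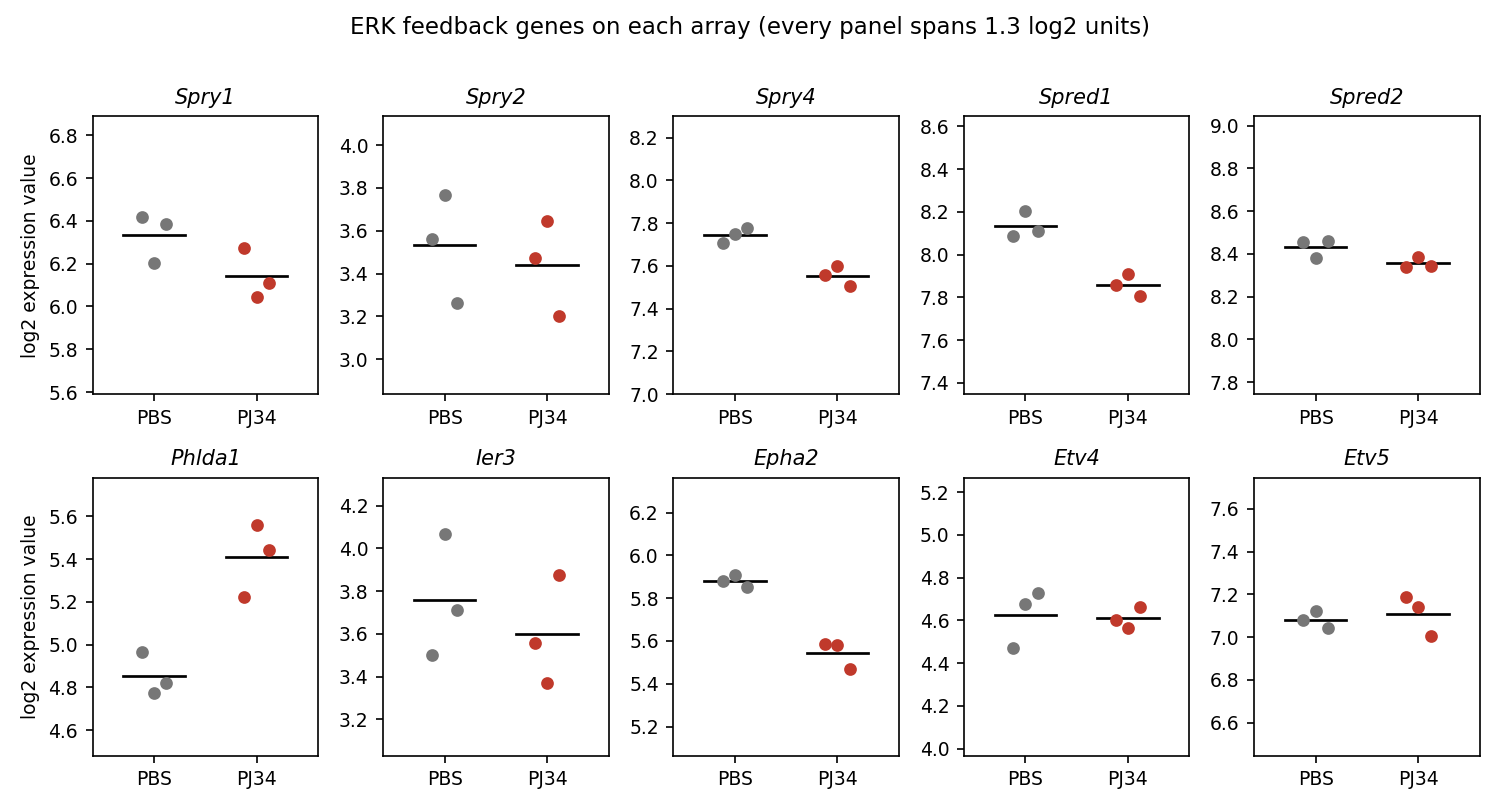
Log2 expression value (vertical axis, every panel spanning the same range) of the 10 genes, each point an array, grey for PBS and red for PJ34, with black lines at the group means. Phlda1 is higher on all 3 PJ34 arrays, Epha2, Spred1 and Spry4 are lower on all 3, and the groups overlap for the other 6 genes.

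Phlda1 encodes a pleckstrin homology-like domain protein induced by growth and stress signals, which was first described in T cells activated through their receptor. Its log2 values were 4.96, 4.77 and 4.82 with PBS and 5.22, 5.56 and 5.44 with PJ34. All 3 treated arrays were above all 3 controls, by at least 0.26, and PJ34 replicate 1 was the lowest of the treated arrays. Phlda1 was 1.47-fold higher (95% confidence interval 1.26 to 1.71), a log2 change of 0.55 (SE 0.097, adjusted p = 0.0222 from limma). Over the 6 fits that left out 1 array the change ranged from 0.48 to 0.65. The call was lost without PBS replicate 2 or 3 (adjusted p = 0.0947 and 0.0884 from limma) or PJ34 replicate 2 or 3 (adjusted p = 0.0546 and 0.0765). It was also lost with the methods' t-test once its p of 0.00851 was adjusted (adjusted p = 0.146). With the replicate number as a block the call was lost too (adjusted p = 0.0653 from limma).

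Epha2, a receptor tyrosine kinase for ephrin-A ligands and itself a transcriptional target of the pathway, went the other way. Its log2 values were 5.88, 5.91 and 5.85 with PBS and 5.59, 5.58 and 5.47 with PJ34. The PBS arrays lay close together (SD 0.027), and the highest PJ34 array was 0.27 below the lowest of them. Epha2 had 0.793 times the PBS level (95% confidence interval 0.716 to 0.877), a log2 change of -0.34 (SE 0.064, adjusted p = 0.0309 from limma). Its call was lost when any array other than PJ34 replicate 2 was left out (adjusted p of 0.0824 to 0.13 from limma), with changes of -0.36 to -0.30. With the methods' t-test its p was 0.0013 before and 0.0757 after adjustment, and with the replicate number as a block its adjusted p was 0.0678 from limma. Its listed ephrin-A ligands, Efna1 to Efna5, did not pass, with changes from -0.11 (Efna2) to 0.042 (Efna5), and 3 of the 5 lay below the median level.

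The stretches just upstream of Epha2, which fell, and of Spred1 and Spred2, a related pair of which neither passed, are given here so that they can be set beside the values. RefSeq start windows (GRCm38.p6) were found for 7 of the 10 genes and not for Phlda1, Etv4 and Spry4. Each line holds the 250 bases before the start, 5′ to 3′ on the gene's strand, at chr4:141300971-141301220 for Epha2, chr2:117120821-117121070 for Spred1 and chr11:19924192-19924441 for Spred2, all on the plus strand. Capitals mark matches, on either strand, to the cyclic AMP response element TGACGTCA or its shorter core TGACG, which the full element contains on both strands.
Epha2: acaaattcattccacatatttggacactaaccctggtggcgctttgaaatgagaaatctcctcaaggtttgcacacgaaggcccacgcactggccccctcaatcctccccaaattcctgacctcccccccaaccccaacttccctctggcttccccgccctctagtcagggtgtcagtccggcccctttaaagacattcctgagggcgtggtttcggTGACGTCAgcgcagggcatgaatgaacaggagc
Spred1: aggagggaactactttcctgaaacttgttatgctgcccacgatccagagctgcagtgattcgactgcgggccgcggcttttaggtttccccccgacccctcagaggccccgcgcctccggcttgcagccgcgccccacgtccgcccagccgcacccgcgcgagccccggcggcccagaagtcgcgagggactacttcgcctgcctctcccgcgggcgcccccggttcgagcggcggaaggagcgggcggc
Spred2: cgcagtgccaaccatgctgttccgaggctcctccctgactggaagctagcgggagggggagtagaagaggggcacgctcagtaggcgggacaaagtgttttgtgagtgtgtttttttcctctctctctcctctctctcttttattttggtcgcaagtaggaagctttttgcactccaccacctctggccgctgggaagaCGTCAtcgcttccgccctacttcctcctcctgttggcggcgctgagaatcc
The Epha2 stretch held a full element, whose first base lay 33 bases before the start, as 1.55% of all 32851 windows of this length did. The Spred2 stretch held this core on the minus strand, reaching up to 51 bases before the start, and 17.8% of all windows held the core. None of the windows of the 7 genes matched TGANTCA (AP-1), CCGGAAG (ETS factors) or a CArG box (serum response factor), which 6.75%, 6.91% and 1.47% of all windows held. A match shows these letters only, and a missing match says nothing of a factor.

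The inhibitors Spry1, Spry2, Spry4, Spred1 and Spred2 all had lower means with PJ34 on the probe sets used. Of all probe sets tested, 49.0% had a negative change, and a second probe set of Spred2 had a positive one (0.045). None of the 5 passed limma's adjusted test or the methods' t-test after adjustment. At an unadjusted p under 0.05 from limma, 2 were lower, beside 16.7% of all probe sets tested in either direction. Spred1, which blocks Ras signalling by bringing the Ras inhibitor neurofibromin to the membrane, came closest to the threshold. Its log2 values were 8.09, 8.20 and 8.11 with PBS and 7.86, 7.91 and 7.81 with PJ34. The groups did not overlap, with a gap of 0.18, and the log2 change was -0.28 (SE 0.065, adjusted p = 0.0653 from limma). Spred1 passed when eBayes was made robust and followed an intensity trend (adjusted p = 0.00844), when dim probe sets were dropped (adjusted p = 0.0167), and in no fit that left out 1 array.

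Spry4, a Sprouty protein that inhibits signalling of growth factor receptors, showed the same picture at a smaller size. Its log2 values were 7.71, 7.75 and 7.78 with PBS and 7.56, 7.60 and 7.51 with PJ34. The groups were 0.11 apart, and the log2 change was -0.19 (SE 0.062, adjusted p = 0.16 from limma). It reached an adjusted p of 0.05 (just under the threshold) only without dim probe sets. Spry1, which restrains receptor tyrosine kinases and, in T cells, antigen receptor signals, had 6.42, 6.20 and 6.39 with PBS and 6.27, 6.05 and 6.11 with PJ34. PJ34 replicate 1 lay above PBS replicate 2, so the groups overlapped. The log2 change of Spry1, -0.19 (SE 0.087, adjusted p = 0.308 from limma), was about that of Spry4 with a wider error.

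Spred2, the close relative of Spred1, was nearly level. Its log2 values were 8.45, 8.38 and 8.46 with PBS and 8.34, 8.38 and 8.34 with PJ34, a change of -0.076 (95% confidence interval -0.21 to 0.062, adjusted p = 0.605 from limma). PJ34 replicate 2 lay just above PBS replicate 2, and the other PJ34 arrays were lower than every PBS array. A second probe set of Spred2 gave 0.045 with an interval of -0.11 to 0.20, so the sign of this gene depends on the probe set. Spry2, an inhibitor of the pathway in many tissues, was dimmer than the median of all probe sets, at 3.56, 3.77 and 3.26 with PBS and 3.47, 3.65 and 3.20 with PJ34. Arrays of one group differed by more than the group means did (change -0.092, 95% confidence interval -0.43 to 0.24), and the interval of Spry2 still holds a fall as large as the value of Spred1.

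**Figure D2:**
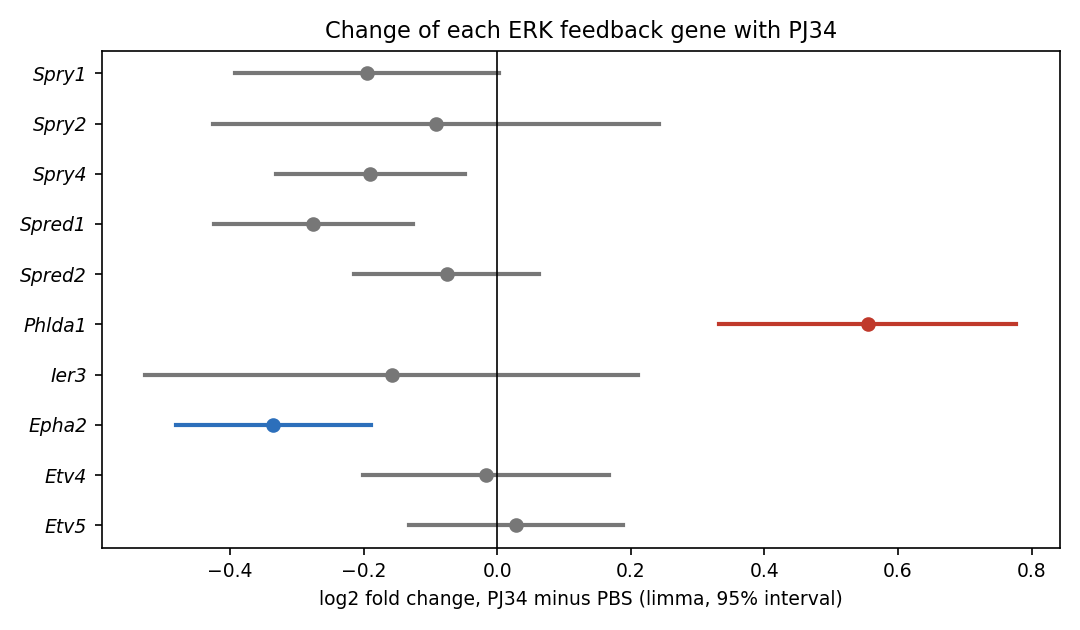
The horizontal axis gives the log2 fold change, PJ34 minus PBS, of the 10 genes with the 95% confidence interval from limma. Phlda1 (red, 0.55) rose and Epha2 (blue, -0.34) fell at an adjusted p under 0.05, grey genes did not pass, and the widest intervals are those of Ier3 and Spry2.

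On the probe sets used, the 3 other genes changed little or varied too much to tell. Ier3, an immediate early gene that affects cell survival, lay below the median level and ranged from 3.50 to 4.07 with PBS and from 3.37 to 3.88 with PJ34. The groups overlapped widely, and the log2 change was -0.16 (SE 0.16, adjusted p = 0.702 from limma). Etv4, an ETS transcription factor that the pathway induces in many tissues, had 4.47, 4.68 and 4.73 with PBS and 4.60, 4.56 and 4.66 with PJ34. Its change of -0.017 (95% confidence interval -0.20 to 0.17) lay within the spread of the PBS arrays (SD 0.136).

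For Etv5, the close relative of Etv4, the 2 probe sets gave unequal values. The brighter read 7.08, 7.12 and 7.04 with PBS and 7.19, 7.14 and 7.00 with PJ34, a change of 0.028 (SE 0.070, adjusted p = 0.897 from limma) with overlapping groups. The other read 6.59, 6.91 and 6.74 with PBS and 6.93, 7.03 and 6.94 with PJ34, a change of 0.22 (SE 0.088, adjusted p = 0.259 from limma). On that probe set all PJ34 arrays were above all PBS arrays, but by no more than 0.017. Both list the same RefSeq transcript, and neither passed, with an unadjusted p of 0.0375 from limma for the dimmer. Probe set numbers of the other members with windows run by chromosome name. The dimmer falls between Spry2 and Ier3, on chromosomes 14 and 17, and the brighter before Spred2, on chromosome 11. Windows of Etv5 lie on chromosome 16, a place in this order that the dimmer takes and the brighter does not. The brighter may thus not lie on the gene, which was not tested. The counts, median and figures of the feedback genes use the brighter. With the dimmer, Etv5 would count among the genes whose groups did not overlap, at a change of 0.22.

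Beside these 10 genes, other genes of the pathway were followed in 7 lists, from receptors to outputs. Of 121 listed names 110 had a probe set of their own. Of the 110 genes, 10 rose (9.09%) and 1 fell (0.909%), against 1.72% and 1.35% of all probe sets tested. At an unadjusted p under 0.05 from limma, 20 were higher and 9 lower, beside 16.7% of all probe sets tested in either direction. The transcription factors and outputs held 10 of these, all higher. Of 22 measured transcription factors and outputs, 6 rose and none fell: Fos, Fosb, Fosl2, Egr1, Egr2 and the translation kinase Mknk2, with a list median of 0.11. None of these 6 passed the methods' t-test after adjustment. Fos (log2 change 1.16, SE 0.090) and Egr1 (0.92, SE 0.092), early transcription factors, changed most. Of 8 ERK phosphatases, 2 rose and none fell, Dusp1 (0.62, SE 0.059) and Dusp10 (0.28, SE 0.058), which act more on the stress kinases p38 and JNK, and both passed that test. Dusp6, a phosphatase specific to ERK and a standard readout of its activity, was level at -0.061 (95% confidence interval -0.20 to 0.079). Among the 8 phosphatases, 3 were higher and none lower at an unadjusted p under 0.05 from limma. They include Dusp4 (0.23, SE 0.074, adjusted p = 0.16 from limma), which did not pass but whose groups did not overlap. Of the 8, the groups did not overlap for 3 that were higher and 1 that was lower, Dusp2 (-0.12). Over all probe sets tested, 23.5% did not overlap. Fos is also among the genes that the study picked out on these arrays, and its rise is not independent evidence. Without 1 array, 4 to 8 of these genes were called higher and none lower.

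Upstream of ERK few genes passed. None of 23 growth factor receptors and EphA2 partners did by limma's adjusted test or by the methods' t-test after adjustment, with 1 higher and 3 lower at an unadjusted p under 0.05 from limma. Of 15 adaptors and Ras activators none passed by either test, with 3 lower at the unadjusted p, among them the docking protein Gab2 (-0.32, adjusted p = 0.053 from limma). Of 13 genes of Ras, Raf, MEK and ERK, the Ras-related GTPase Rras2 alone rose (0.34, SE 0.072). Of 18 inhibitors of Ras and Raf, Lztr1, an adaptor that marks Ras proteins for ubiquitination, fell (-0.33, SE 0.062) and none rose. Of 11 family relatives of the 10 genes, the immediate early gene Ier5 rose (0.47, SE 0.073) and none fell. At the unadjusted p, 1 of the Ras to ERK genes was higher and 1 lower, 2 and 2 of the inhibitors, and 3 and 0 of the relatives. Beside these unadjusted counts, 16.7% of all probe sets tested were under 0.05 in either direction. After adjustment, the methods' t-test called none of Rras2, Lztr1 and Ier5. Spred3, the third Spred gene, was at 0.23 (adjusted p = 0.208 from limma) and Spry3 at 0.11. Both were positive where the listed Spry and Spred genes were negative on the probe sets used. Neither passed, and the difference from the other Spry and Spred genes was not tested.

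**Figure D3:**
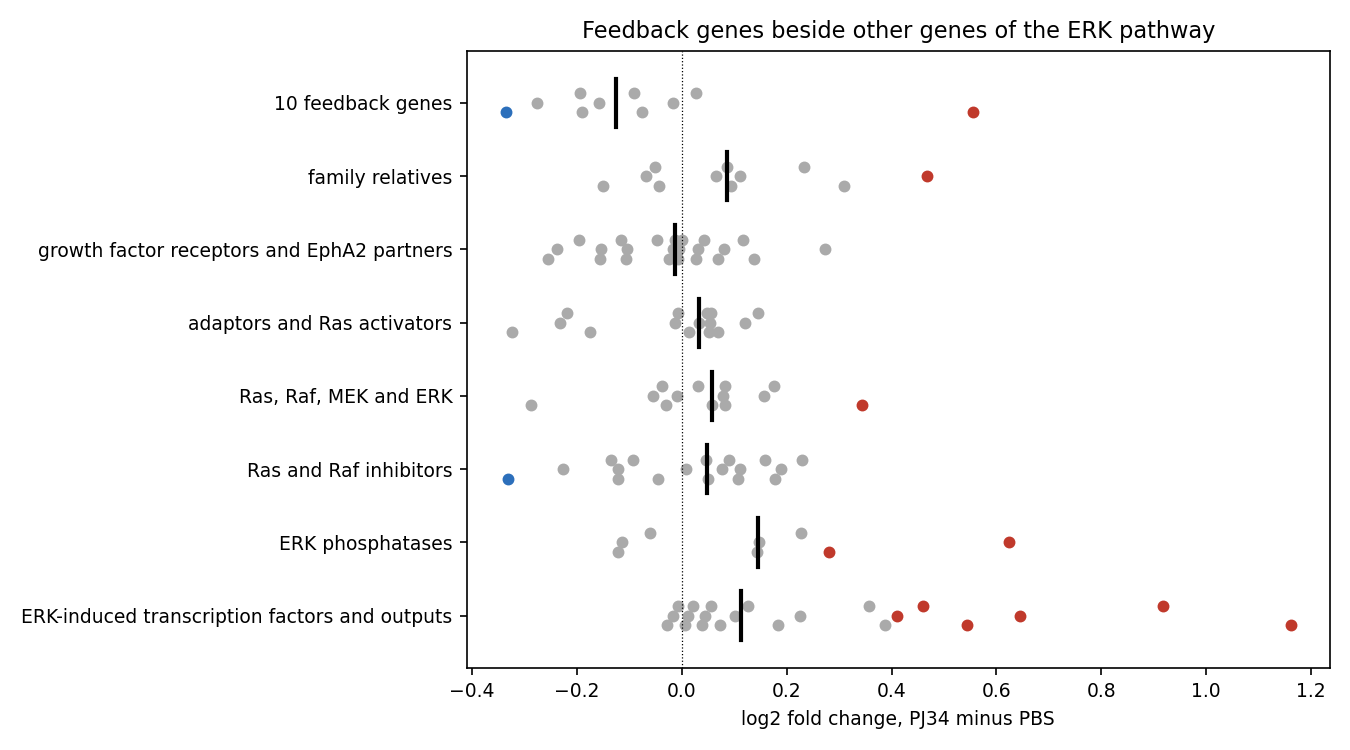
The horizontal axis gives the log2 fold change, PJ34 minus PBS, with a point for every measured gene and 1 row for the 10 feedback genes and 1 for each of the 7 other lists of the ERK pathway. Genes that passed limma's adjusted test are red (rose) or blue (fell), all others are grey, and a black bar marks each median, -0.12 for the feedback genes and 0.11 for the transcription factors and outputs.

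**Figure D4:**
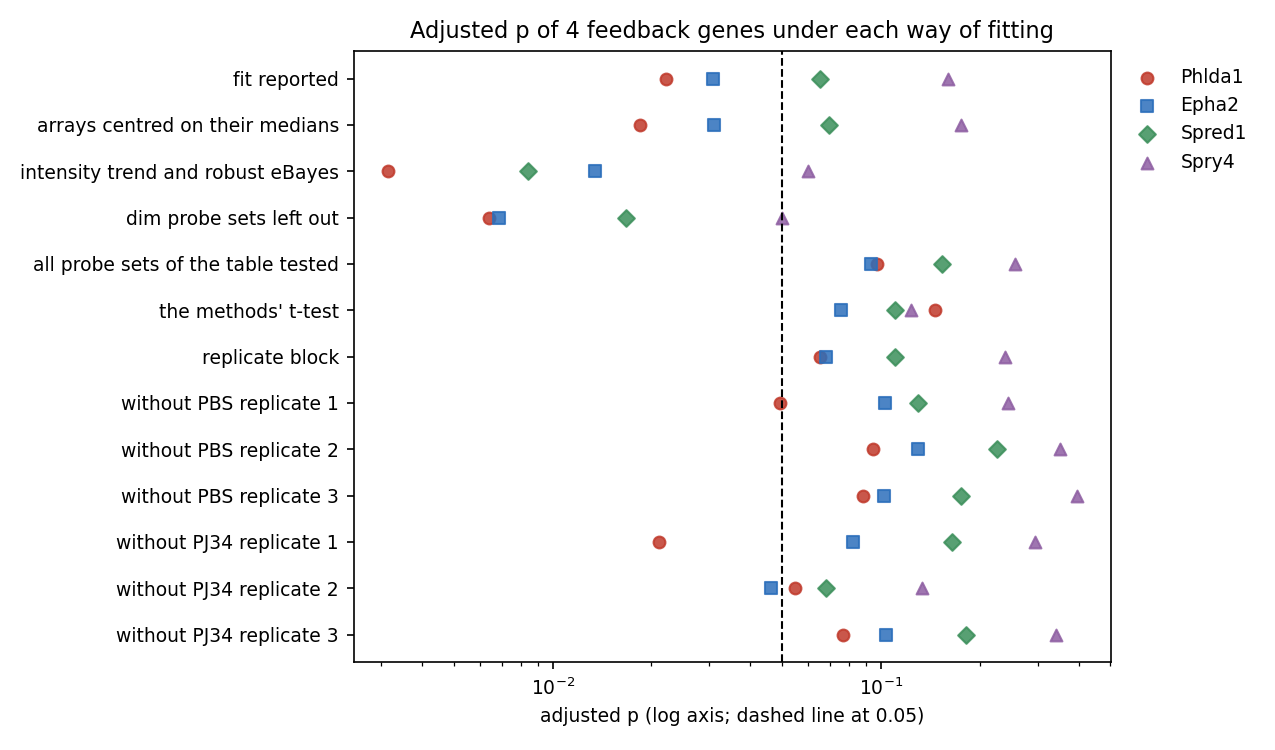
Adjusted p (horizontal log axis, dashed line at 0.05) of Phlda1, Epha2, Spred1 and Spry4 under the fit reported and each of the 12 alternatives, 1 per row. Phlda1 passed in 5 of the 12 alternatives, Epha2 in 4, Spred1 in 2 and Spry4 in 1.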

How the data were processed

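Gene expression in C1498 cells was measured on 6 Affymetrix Mouse Gene 1.0 ST arrays, 3 per group, assigned to PJ34 or PBS from the sample titles. The submitters' processing notes name Affymetrix Expression Console 1.3.1 and RMA, and the authors deposited log2 expression values, which RMA background corrects, quantile normalizes and summarises per probe set. These were used unchanged. Signal over background is unknown, since the values hold no detection calls, and the number of arrays limits the precision. The gene table gives 1 gene for 21789 of 35556 probe sets, several for 1621 and none for 12146. All 23410 named probe sets and 2 more from the study's tables were tested (23412) with limma 3.58.1 in R 4.3.3 (lmFit, eBayes), and p was adjusted over all of them by Benjamini-Hochberg. The fit was tested on simulated data first. Named are the 10 genes and those of the 7 pathway lists that passed. Efna2, Efna5, Dusp2, Dusp4, Dusp6, Gab2, Spred3 and Spry3 were chosen after their values were seen. The members and lists were chosen with earlier results of these data known, and the motifs with the promoter windows in view. Promoter windows are from RefSeq (GRCm38.p6). No genome build is given for the arrays in the sources used here. Alternatives were centring, an intensity trend with robust eBayes, leaving out dim probe sets, testing all 35556 probe sets, the methods' t-test, the replicate number as a block, and leaving out each array. The p of the methods' t-test was adjusted like that of limma, although the paper's methods name no adjustment.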

Additional observations from a re-analysis of the deposited data

How the results depend on the processing

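Counts of calls moved with the fit. The directions of Phlda1 and Epha2 were the same under all 12 alternatives, but these could hardly have turned them. The trend, dim probe set, all probe set, t-test and block settings alter the test alone and leave the log2 change as it was. Leaving out 1 array cannot reverse groups that do not overlap. Centring moved Phlda1 from 0.55 to 0.53 and Epha2 from -0.34 to -0.36. Against 403 higher and 315 lower probe sets, centring called 333 and 366, with more lower than higher, robust eBayes with an intensity trend called 1009 and 921, leaving out dim probe sets 892 and 777, testing all probe sets 112 and 76, the methods' t-test 78 and 65, and the replicate block 222 and 143. The fits without 1 array called 148 to 282 and 83 to 321. Of the 10 feedback genes, 1 higher and 1 lower, the trend called 2 lower and leaving out dim probe sets 3. Testing all probe sets, the methods' t-test and the replicate block each called 0 higher and 0 lower, and the fits without 1 array 0 to 1 of each. Of the pathway genes, 10 higher and 1 lower, testing all probe sets gave 3 and 0 and the methods' t-test 2 and 0. The lower count was 2 with centring, 3 with the trend, 4 without dim probe sets, 0 with the replicate block, and 0 in each fit without 1 array, where 4 to 8 were higher. Signs of small changes turned in fits without 1 array, which ranged from -0.23 to 0.028 for Spry2, from -0.094 to 0.035 for Etv4 and from -0.010 to 0.081 for Etv5. Averaging probe sets gave -0.015 for Spred2 and 0.12 for Etv5. What moved the counts was not tested. Over all probe sets tested, arrays with the same number did not deviate together (correlations of -0.013, 0.13 and -0.0092), so the numbers were not taken as pairs. For the 10 genes the median deviation from the group mean was 0.033 on both arrays numbered 2. It was -0.025 (PBS) and -0.042 (PJ34) on those numbered 3, and -0.00041 and 0.0018 on those numbered 1. With the replicate block, the unadjusted p of Spry2 from limma was 0.203, beside 0.546 without it. Spry2 and Ier3 lay below the median level, where the share of background in the signal is unknown.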
